A study of Mus musculus with 6 samples.

Results

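The genes of the matrix metalloproteinases (MMPs) and of their tissue inhibitors (TIMPs) were followed in differentiating mouse muscle cells. The members were a list of names: Mmp2, Mmp3, Mmp9, Mmp10, Mmp13, Mmp14, Timp1, Timp2, Timp3 and Timp4, 10 of the 17558 genes in the deposited table. That list was chosen with earlier results of these data known. All 10 were found by NCBI gene number. Of these, 9 passed the filter on low counts and were tested. Timp4 did not pass.

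RNA was sequenced from C2C12, an immortalized mouse myoblast line that leaves the cell cycle and fuses into myotubes when serum is lowered. Every library was harvested 48 h after the change from 10% fetal bovine serum to 2% horse serum with insulin, transferrin and selenium. The control group, shScr, carried a scrambled hairpin and has the genotype label WT. The group ShPkm1 carried a hairpin against the Pkm1 isoform of pyruvate kinase and the group ShPkm2 one against the Pkm2 isoform, labelled as Pkm1 Knockdown and Pkm2 Knockdown. All groups therefore carry a stable hairpin construct. Each had 2 libraries. Nothing says whether a line was 1 clone or a pool, how many hairpins stand behind a group, or whether replicates were separate cultures, so p-values measure the spread between these libraries, which may be technical.

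The depth of a library lay between 18216896 and 19796036 estimated counts. The isoform labels were checked first, in TPM (a transcript level scaled to its length and to a fixed library sum). The Pkm1 isoform stood at 567 ± 30.4 TPM (SD, n = 2) in shScr, at 230.5 ± 17.3 in ShPkm1 and at 254 ± 0.0919 in the ShPkm2-labelled libraries. The Pkm2 isoform stood at 1295 ± 314, 1329 ± 71.7 and 2665 ± 49.6 TPM, so the label of the ShPkm2 libraries was not borne out by a lower Pkm2 isoform. For that reason the group is called by the label of its libraries. Of the 6 myotube markers (Myog, Mymk, Myh3, Ckm, Acta1, Tnnt3) all were present in every library, with summed levels of 27550 and 20710 TPM in shScr, 9462 and 10260 in ShPkm1 and 220 and 217 in the ShPkm2-labelled libraries. The proliferation gene Mki67 had log2 fold changes of 1.46 and 2.90 against shScr. In bulk RNA, fewer cells of a type and less RNA per cell cannot be told apart. An 18-gene muscle differentiation list was lower throughout in each comparison, with median log2 fold changes of -1.66 and -7.37 against shScr (Myh8 -3.34 and -8.33, Ckm -2.81 and -8.16) and -5.32 between the Pkm hairpin groups (Acta1 -6.13, Actc1 -5.95). The 4 myoblast markers (Myod1, Myf5, Pax7, Des) summed to 2555 and 2641, 2264 and 2400, and 900 and 827 TPM. Des, also a gene of differentiated muscle, was the largest part (means of 2285, 2101 and 719 TPM). Myod1 had means of 300.1, 212 and 87.98 TPM, Pax7 0.570, 0.650 and 0.0850, and Myf5 12.5, 19.5 and 56.8. Scaling mattered for the balance of directions. Against shScr, 50.3% of the calls over all genes were higher in ShPkm1 and 49.8% in the ShPkm2-labelled libraries. Scaled to library totals alone, with no composition factor, these shares were 65.8% and 69.3%, and the median log2 fold change of all genes was 0.19 and 0.33 in place of about 0.

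MMPs are zinc-dependent proteases that cut collagens, laminins, proteoglycans and other proteins around the cell. They are made as latent proenzymes, held inactive by a cysteine in the prodomain, and become active when that prodomain is removed. TIMPs bind the active site and block it. Timp2 also takes part in activation, since it links the membrane enzyme Mmp14 to the proenzyme of Mmp2. In muscle, Mmp2, Mmp9 and Mmp14 are known for the turnover of basement membrane and matrix around migrating and fusing myoblasts. The present values are RNA levels, and say nothing of latent or active enzyme.

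Mmp3, Mmp10 and Mmp13 lie together in the MMP cluster on chromosome 9, and Mmp3 and Mmp13 fell in both comparisons with shScr while Mmp10, with the same 2 promoter motifs, did not pass the test in any comparison. Their promoters are shown for this reason. The sequences are the 100 bases just before the RefSeq start (GRCm38.p6, the mm10 build, plus strand), at chr9:7445722-7445821, chr9:7502242-7502341 and chr9:7272414-7272513. Capitals mark matches to the AP-1 motif TGANTCA and to the TATA box TATAAA.
Mmp3: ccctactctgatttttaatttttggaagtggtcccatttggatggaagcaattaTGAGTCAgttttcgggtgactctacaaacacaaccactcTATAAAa
Mmp10: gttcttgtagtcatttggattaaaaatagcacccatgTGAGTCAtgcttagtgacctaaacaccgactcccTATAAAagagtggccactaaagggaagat
Mmp13: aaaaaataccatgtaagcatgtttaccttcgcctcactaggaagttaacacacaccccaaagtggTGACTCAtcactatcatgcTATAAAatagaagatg

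The AP-1 match began 46 bases before the start in Mmp3, 63 in Mmp10 and 35 in Mmp13. The TATAAA match began 7, 29 and 16 bases before it, and whether these letters serve as a TATA box was not tested. Of the 10 members 8 had an entry in the promoter table, Mmp2 and Mmp9 having none. Motifs were searched on both strands of the 250 bases before the start, and no 2 of the motifs overlapped in these promoters. AP-1 matches were found in these 3 members and in 6.75% of all 32851 promoters searched, and TATAAA matches in the same 3 and in 12.4% of all. Promoters with both made up 1.21% of all.

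The promoters of the other members held different letters. The GC box GGGCGG (32.7% of all promoters) was found in Mmp14, Timp1, Timp2 and Timp3, and the E-box CAGCTG (13.0% of all) in Timp2 and Timp4. The stretch of Timp3 is shown because its RNA rose most among the inhibitors in ShPkm1, with the GC box, here on the opposite strand, starting 15 bases before the start. It lies on the plus strand at chr10:86300312-86300411 and holds no match to TGANTCA or TATAAA, so it has no capitals. A match is a description of letters and not a bound site.
Timp3: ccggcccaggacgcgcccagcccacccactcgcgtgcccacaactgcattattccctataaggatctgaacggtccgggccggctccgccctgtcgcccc

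**Figure D1:**
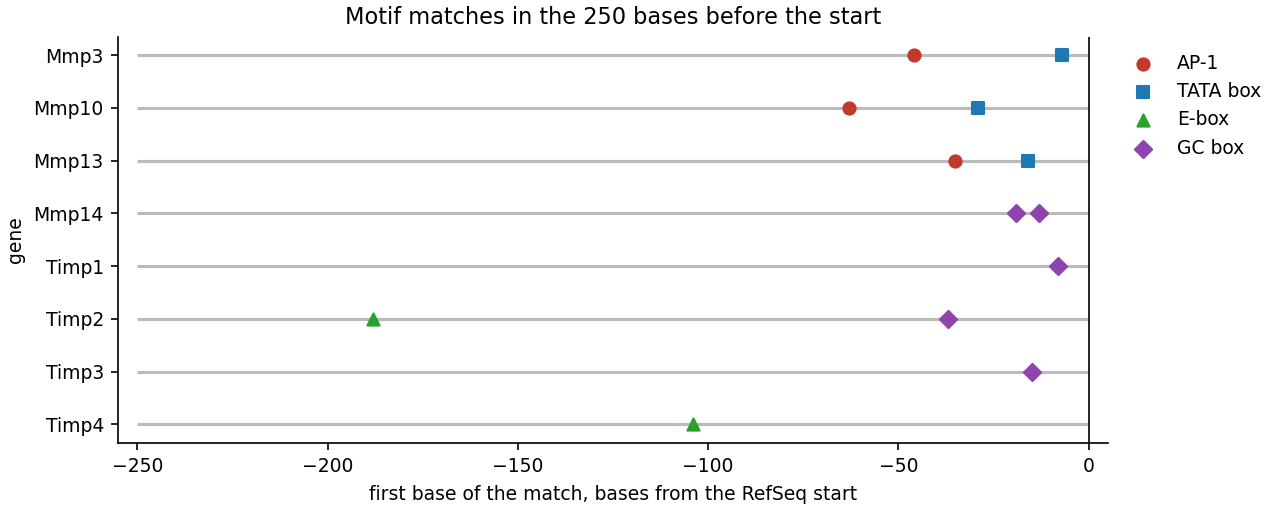
Position of the first base of each motif match (x axis, bases from the RefSeq start) in the 250 bases before the start, for the 8 members with a promoter entry (y axis). AP-1 and TATA box matches stand together in Mmp3, Mmp10 and Mmp13, and GC boxes within 37 bases of the start in Mmp14, Timp1, Timp2 and Timp3.

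Levels of the members ranged over orders of magnitude. In shScr, Timp2 had the highest TPM at 568 ± 163 (SD, n = 2), followed by Timp1 at 217 ± 27.8 and Mmp14 at 208 ± 74.3, whose ranges overlapped. Mmp2 followed at 43.3 ± 10.97 and Timp3 at 16.8 ± 0.948. Mmp9, Mmp3 and Mmp13 came next at 7.21 ± 6.15, 4.19 ± 2.998 and 3.06 ± 1.90, with overlapping ranges between neighbours in that order. Mmp10 was at 0.740 ± 0.212 and Timp4 was listed at 0.

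The order changed in ShPkm1. Mmp2 stood first at 645 ± 11.7 TPM, then Timp1 at 584.5 ± 24.3, Timp2 at 545 ± 19.2, Mmp14 at 378 ± 6.07 and Timp3 at 184.5 ± 24.1, with no overlap between neighbours. Mmp10, Mmp3, Mmp9 and Mmp13 were all under 1 TPM. For the ShPkm2-labelled libraries the order was Timp1 (534 ± 31.5 TPM), Timp2 (475 ± 0.792), Mmp14 (302 ± 12.9), then Timp3 (28.6 ± 2.95) and Mmp2 (27.1 ± 0.941), the last pair overlapping.

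**Figure D2:**
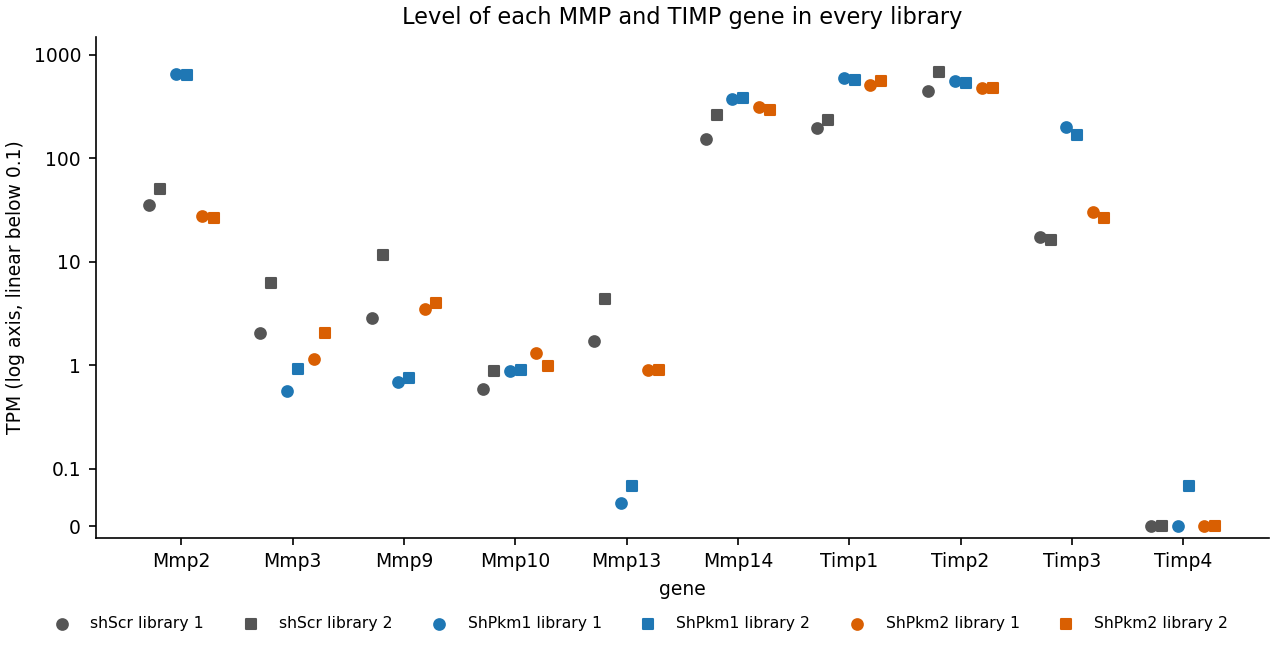
TPM of the 10 members (x axis) in each of the 6 libraries (y axis, log scale, linear below 0.1), with colour for the group and shape for the library. Mmp2 and Timp3 stand apart in ShPkm1, and the 2 shScr libraries differ from each other in Mmp9, Mmp3 and Mmp13.

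The first comparison asks which members differed in ShPkm1. Of the 10 members 8 had an adjusted p under 0.05 (edgeR quasi-likelihood test with Benjamini-Hochberg adjustment over 12643 genes), 4 higher and 4 lower, where 63.1% of all tested genes were called (31.8% higher and 31.4% lower). The number of calls alone therefore says little about these genes. Changes of at least 2-fold were called in 6 members, 3 higher and 3 lower, against 22.1% of all genes (12.6% higher and 9.41% lower), and changes of at least 8-fold in 4 members against 3.12%. The last count was 2 without shScr replicate 2 or with limma on log2(TPM + 1), and 3 without ShPkm1 replicate 1. Mmp2 and Timp3 were the members above 8-fold that rose, and Mmp9 and Mmp13 those that fell.

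Against shScr 7 of the 10 members were called in the ShPkm2-labelled libraries, 2 higher and 5 lower, where 68.0% of all genes were called (33.9% higher and 34.2% lower). At least 2-fold were 4 members, all lower, against 27.9% of all genes (14.1% higher and 13.7% lower). That count rested on 1 control library, since it was 1 without shScr replicate 2, and it was 2 with limma on log2(TPM + 1). No member reached 8-fold (4.60% of all genes). Between the Pkm hairpin groups 5 of the 10 were called, 2 higher and 3 lower in the ShPkm2-labelled libraries, where 53.0% of all genes were called (25.7% higher and 27.3% lower). Of these 4 were at least 2-fold, 2 in each direction, against 18.6% of all genes (7.07% higher and 11.5% lower), and 2 at least 8-fold (4.65% of all genes), Mmp13 and Mmp2, of which Mmp13 was not past 8-fold with limma on log2(TPM + 1). Groups did not overlap in 8, 7 and 9 of the 9 tested members in the 3 comparisons, beside 81.0%, 83.9% and 79.8% of all tested genes. Both comparisons with shScr share the control libraries.

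**Figure D3:**
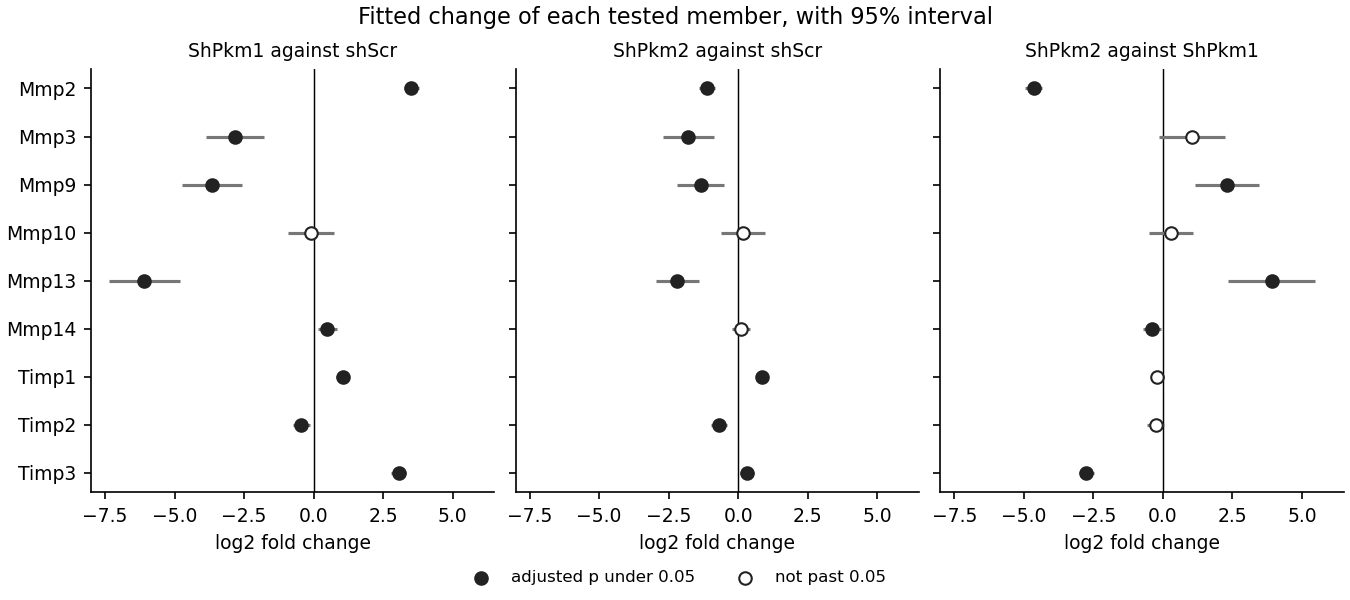
Fitted log2 fold change (x axis) of the 9 tested members (y axis) in the 3 comparisons, with 95% intervals as bars, filled points for an adjusted p under 0.05. Mmp2 and Timp3 lie to the right in ShPkm1 against shScr at 3.52 and 3.06, and Mmp13 lies farthest to the left at -6.09.

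The gelatinases Mmp2 and Mmp9 cut denatured collagen and the type IV collagen of basement membranes. Mmp2 (chromosome 8, 92827290 to 92853421 on GRCm38.p6, as all gene positions here are from RefSeq on that build) had 1314 and 1875 counts in shScr, 20030 and 21743 in ShPkm1, and 921 and 913 in the ShPkm2-labelled libraries. No group overlapped another, and ShPkm1 was far above both. Mmp2 was 11.4-fold higher in ShPkm1 than in shScr (log2 fold change 3.52, SE 0.132, adjusted p 2.17e-10). It was 2.18-fold lower in the ShPkm2-labelled libraries (-1.12, SE 0.126, adjusted p 3.82e-06).

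Set directly against each other, the Pkm hairpin groups differed in Mmp2 by 24.9-fold, lower in the ShPkm2-labelled libraries (-4.64, SE 0.139, adjusted p 3.37e-11). All 16 settings, the reported one included, gave Mmp2 the same 3 directions and calls. Nearly all its counts came from 1 of its 2 listed transcripts, NM_008610.3, with at least 97.2% in every library.

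Mmp9 (chromosome 2, 164940326 to 164955850) was far less abundant. It had 109 and 438 counts in shScr, 22 and 27 in ShPkm1, and 120 and 144 in the ShPkm2-labelled libraries. On scaled counts (CPM, the count over the scaled library size) the control libraries held 6.91 and 24.7, a 3.58-fold difference within the group. Both ShPkm1 libraries, at 1.17 and 1.37 CPM, lay below all others. The ShPkm2-labelled libraries, at 5.65 and 6.87 CPM, lay just under the lower control.

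Mmp9 was 12.5-fold lower in ShPkm1 (-3.64, SE 0.499, adjusted p 3.35e-05). The size depended on the controls, being -2.44 without shScr replicate 2 and -4.28 without replicate 1. In the ShPkm2-labelled libraries it was 2.55-fold lower (-1.35, SE 0.393, adjusted p 0.00795), and this call rested on shScr replicate 2, since without it the value was -0.14 (adjusted p 0.579). Nor was it called by DESeq2 (adjusted p 0.0976), by limma on log2(TPM + 1) (-0.55, adjusted p 0.207) or without ShPkm2 replicate 1 (-1.21, adjusted p 0.0501). The direct comparison, which does not use the control levels, gave 4.91-fold more Mmp9 in the ShPkm2-labelled libraries than in ShPkm1 (2.29, SE 0.534, adjusted p 0.00269). Mmp2 and Mmp9 thus went opposite ways in ShPkm1, each past the threshold.

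The collagenase Mmp13 cuts intact fibrillar collagen. It lies on chromosome 9 from 7272514 to 7283333 and had 55 and 140 counts in shScr, 1 and 2 in ShPkm1, and 26 and 27 in the ShPkm2-labelled libraries. The 3 groups did not overlap, and both ShPkm1 libraries were under the floor of 3 counts. From summed counts, shScr held 74.9 times as much as ShPkm1, with an exact 95% counting interval of 25.2 to 366, and the ShPkm2-labelled libraries held 16.1 times as much, with an interval of 5.23 to 80.8. These intervals cover counting error only.

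In the edgeR fit Mmp13 had a log2 fold change of -6.09 in ShPkm1 (adjusted p 1.59e-06), a value that depends on the prior count at so few reads. It was 4.55-fold lower in the ShPkm2-labelled libraries (-2.19, SE 0.365, adjusted p 0.000138). Without shScr replicate 2 these were -5.37 and -1.47. All 15 settings that tested Mmp13 called it in each comparison.

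The stromelysins Mmp3 and Mmp10 have broad substrates and can activate other MMP proenzymes. Mmp3 (chromosome 9, 7445822 to 7455975) had 44 and 133 counts in shScr, 10 and 18 in ShPkm1, and 22 and 41 in the ShPkm2-labelled libraries. All 4 libraries of the Pkm hairpin groups lay below both controls once scaled, at 0.532 to 1.96 CPM against 2.79 and 7.51. Mmp3 was 7.11-fold lower in ShPkm1 (-2.83, SE 0.487, adjusted p 0.000228) and 3.47-fold lower in the ShPkm2-labelled libraries (-1.79, SE 0.429, adjusted p 0.00225). Without shScr replicate 2 the values were -1.93 and -0.90. The Pkm hairpin groups differed by 1.04 (95% interval -0.15 to 2.23, adjusted p 0.130). This was called in a fit of those 4 libraries (adjusted p 0.00829) and with the replicate block (adjusted p 0.0247).

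Mmp10 (chromosome 9, 7502342 to 7510242) had 12 and 18 counts in shScr, 15 and 17 in ShPkm1, and 24 and 19 in the ShPkm2-labelled libraries. Scaled to CPM, the groups overlapped in both comparisons with shScr. Its log2 fold change was -0.11 in ShPkm1 (95% interval -0.93 to 0.72, adjusted p 0.823), a sign that turned to 0.08 without a composition factor and to 0.12 without shScr replicate 2. In the ShPkm2-labelled libraries it was 0.19 (95% interval -0.60 to 0.98, adjusted p 0.665).

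The cluster that holds these genes spans 427 kb of chromosome 9 and has 10 MMP genes, of which 5 were tested. Mmp12 (macrophage elastase) lies between Mmp13 and Mmp3. It had 17 and 27 counts in shScr, 53 and 43 in ShPkm1, and 5 and 9 in the ShPkm2-labelled libraries, so it moved opposite to its neighbours in ShPkm1 (0.93, adjusted p 0.0253). In the ShPkm2-labelled libraries it was lower (-1.96, adjusted p 0.00147). Mmp8 (neutrophil collagenase) had 9 and 43, 3 and 5, and 16 and 28 counts, with -2.85 (adjusted p 0.00321) in ShPkm1 and -0.55 (adjusted p 0.361) in the ShPkm2-labelled libraries. The other 5 genes of the cluster had at most 3 counts in any library or no row. Neighbours in the cluster thus did not share 1 direction, though Mmp12 and Mmp8 had few counts and their leave-one-out values are not given.

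Mmp14 encodes the membrane-type MMP that activates the Mmp2 proenzyme at the cell surface. It lies on chromosome 14 from 54431598 to 54442456. It had 7123 and 11875 counts in shScr, 14250 and 16242 in ShPkm1, and 12856 and 12580 in the ShPkm2-labelled libraries. In CPM the controls held 451.5 and 671, ShPkm1 759 and 821, and the ShPkm2-labelled libraries 605 and 600, the last within the range of the controls.

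Mmp14 was 1.41-fold higher in ShPkm1 (0.49, SE 0.154, adjusted p 0.0134). The call was lost without shScr replicate 1 (0.24, adjusted p 0.0715) and without ShPkm1 replicate 2 (0.44, adjusted p 0.0978). Against shScr the ShPkm2-labelled libraries differed by 0.10 (95% interval -0.23 to 0.44, adjusted p 0.568), while without a composition factor that value was 0.42 and past the threshold (adjusted p 0.0375), as it was on log2(TPM + 1) with limma (0.58, adjusted p 0.0114). Without shScr replicate 1 its sign turned (-0.15) and without replicate 2 it was 0.42. The direct comparison gave -0.39 (adjusted p 0.0473), lost without a composition factor (-0.26, adjusted p 0.200), on log2(TPM + 1) (-0.32, adjusted p 0.156) and without any 1 of the 4 libraries compared (adjusted p 0.110 to 0.232).

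Among the inhibitors, Timp3 changed most in ShPkm1, and least of the 3 tested in the ShPkm2-labelled libraries against shScr. The second ranking depended on scaling: with library totals only, Timp3 had 0.64 there and Timp2 -0.38. Timp3 is the TIMP that stays bound to the matrix and that also blocks some ADAM and ADAMTS proteases. It lies on chromosome 10 from 86300412 to 86349505 and had 989 and 908 counts in shScr, 9488 and 8787 in ShPkm1, and 1566 and 1406 in the ShPkm2-labelled libraries. The ShPkm1 libraries lay far above the other 4. Timp3 was 8.33-fold higher in ShPkm1 than in shScr (3.06, SE 0.127, adjusted p 6.08e-10). In the ShPkm2-labelled libraries it was 6.74-fold lower than in ShPkm1 (-2.75, SE 0.124, adjusted p 9.81e-10). All 16 settings kept both calls.

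Against shScr the ShPkm2-labelled libraries had 1.24-fold more Timp3 (0.31, SE 0.121, adjusted p 0.0384). That call was lost on leaving out shScr replicate 2 (0.17, adjusted p 0.208), either ShPkm2 library (0.24 and 0.38, adjusted p 0.213 and 0.0556) or either ShPkm1 library (0.31, adjusted p 0.0503 and 0.0514).

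Timp1, a soluble inhibitor with growth-promoting activity in many cell types, rose in both groups. It lies on chromosome X from 20870166 to 20874737 and had 1987 and 2344 counts in shScr, 5026 and 5235 in ShPkm1, and 4587 and 5213 in the ShPkm2-labelled libraries. All 4 libraries of the Pkm hairpin groups lay above both controls. Timp1 was 2.06-fold higher in ShPkm1 (1.04, SE 0.104, adjusted p 2.00e-06) and 1.80-fold higher in the ShPkm2-labelled libraries (0.85, SE 0.103, adjusted p 8.42e-06). The Pkm hairpin groups differed by -0.20 (95% interval -0.42 to 0.02, adjusted p 0.122), which passed in a fit of those 4 libraries (adjusted p 0.0478).

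Timp1 counts were divided over 3 listed transcripts. The largest, NM_011593.2, took 58.1% to 66.3% of them in every library, and NM_001044384.1 took 31.9% to 39.97%. These shares depend on how the counting split reads that the transcripts have in common.

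Timp2, the partner of Mmp14 and Mmp2, moved the other way. It lies on chromosome 11 from 118301061 to 118355411 and had 19775 and 29671 counts in shScr, 20251 and 21464 in ShPkm1, and 18700 and 19398 in the ShPkm2-labelled libraries. In CPM the controls, at 1253 and 1676, lay above ShPkm1 at 1078 and 1085 and above the ShPkm2-labelled libraries at 880 and 925.5. It was 1.62-fold lower in the latter (-0.70, SE 0.139, adjusted p 0.000575), a call that was lost with limma on log2(TPM + 1) (-0.23, adjusted p 0.205). In ShPkm1 it was 1.35-fold lower (-0.44, SE 0.139, adjusted p 0.0143), a call lost without a composition factor (-0.25, adjusted p 0.153), on log2(TPM + 1) (-0.03, adjusted p 0.871), without shScr replicate 2 (-0.21, adjusted p 0.104) and without either ShPkm1 library (-0.42 and -0.44, adjusted p 0.105 and 0.0842). The Pkm hairpin groups differed in Timp2 by -0.26 (95% interval -0.56 to 0.04, adjusted p 0.131), called in a fit of those 4 libraries (adjusted p 0.0134).

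Timp4 (chromosome 6, 115244444 to 115252205) had 1 count in 1 ShPkm1 library and 0 in the other 5, so all libraries were at or under the floor of 3 counts and no fold is given. The inhibitor genes Timp1, Timp3 and Timp4 lie inside the synapsin genes Syn1, Syn3 and Syn2, on the opposite strand in each case. Timp1 and Timp3 share 0 exon bases with their hosts, and Timp4 shares 90 of 5894 (GENCODE M21, GRCm38). Whether the counting used strand is not given in the sources used here. Syn3 had at most 1 count in any library and Syn2 3 to 12. Syn1 had 524 and 761 counts in shScr, 291 and 306 in ShPkm1, and 855 and 830 in the ShPkm2-labelled libraries, and fell in ShPkm1 (-1.30, adjusted p 2.05e-06) where Timp1 rose.

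Enzyme and inhibitor levels were set side by side as ratios of TPM, which are a description with no test. The ratio of Mmp2 to Timp2 was 0.0786 and 0.0748 in shScr, 1.17 and 1.198 in ShPkm1, and 0.0583 and 0.0556 in the ShPkm2-labelled libraries. Only in ShPkm1, among these groups, did Mmp2 RNA exceed that of Timp2. Mmp14 to Timp2 was 0.343 and 0.381 in shScr, 0.670 and 0.720 in ShPkm1, and 0.654 and 0.617 in the ShPkm2-labelled libraries. That ratio was thus higher in all 4 libraries of the Pkm hairpin groups than in either control, also where Mmp14 itself was not called.

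Mmp2 to Timp3 was 2.04 and 3.17 in shScr, 3.24 and 3.80 in ShPkm1, and 0.904 and 0.996 in the ShPkm2-labelled libraries. Its shScr and ShPkm1 values nearly met, as both genes rose. Mmp9 to Timp1 was instead lowest in ShPkm1. It was 0.0145 and 0.0487 in shScr, 0.00115 and 0.00134 in ShPkm1, and 0.00682 and 0.00725 in the ShPkm2-labelled libraries. The summed TPM of the 6 MMP members was 198 and 335 in shScr, 1030 and 1022 in ShPkm1, and 346 and 327 in the ShPkm2-labelled libraries. Divided by the summed TPM of the 4 inhibitors it gave 0.297 and 0.357, 0.756 and 0.807, and 0.340 and 0.310. The ShPkm2-labelled libraries lay within the range of the controls on this ratio.

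The make-up of these sums differed as well. Mmp2 gave a mean of 16.6% of the MMP sum in shScr, 62.9% in ShPkm1 and 8.04% in the ShPkm2-labelled libraries, and Mmp14 gave most of the rest. Timp2 gave 67.8% and 73.0% of the TIMP sum in shScr, 41.0% and 41.96% in ShPkm1, and 46.7% and 44.9% in the ShPkm2-labelled libraries. Timp1 was the largest in both Pkm hairpin groups, with 44.2% and 44.8% in ShPkm1 and 50.3% and 52.6% in the ShPkm2-labelled libraries.

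**Figure D4:**
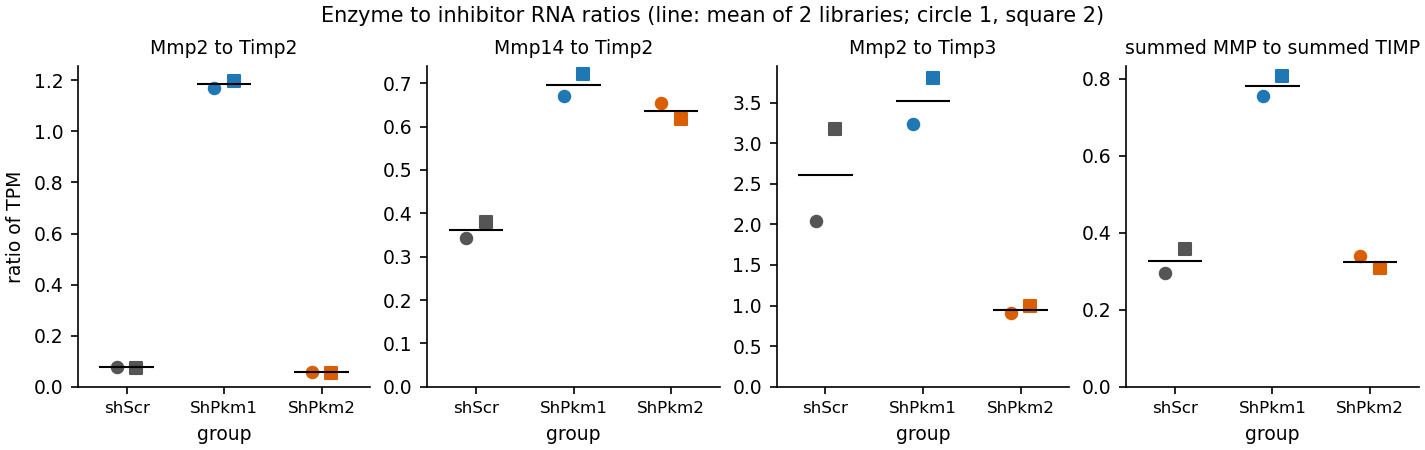
Ratios of TPM (y axes, from 0) for 3 pairs of genes and for the sums over members, by group (x axis), with 1 point per library and a line at the mean. The Mmp2 to Timp2 ratio stands at 1.17 and 1.198 in ShPkm1 and below 0.08 in the other 4 libraries.

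The 2 control libraries differed in several of these genes. Replicate 2 held 3.58 times the CPM of replicate 1 for Mmp9, 2.69 times for Mmp3, 2.27 times for Mmp13 and 1.49 times for Mmp14, but 0.818 times for Timp3. The summed CPM of an 18-gene muscle differentiation list was 0.655 times that of replicate 1. In the Pkm hairpin groups replicate ratios of the members lay between 0.802 and 1.90. The part of this difference between controls in the results above was not tested.

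Markers of other cell types were measured beside the members. The 7 fibroblast markers summed to 1078 and 1326 TPM in shScr, 5872 and 5698 in ShPkm1, and 966 and 828 in the ShPkm2-labelled libraries. Most of the sum was Col1a1 (359.5 and 362.5, 2585 and 2552, 50.5 and 43.2 TPM) and Col3a1. Pdgfrb had means of 47.5, 246 and 74.5 TPM, and Pdgfra was highest in the ShPkm2-labelled libraries (1.31, 8.39 and 9.85 TPM), so the markers did not share 1 order of groups. Lum was at most 0.240 TPM and Thy1 at most 0.05 TPM. The part of these markers in the Mmp2 and Timp3 results was not tested. Of 6 macrophage markers 4 had a row, with a summed 3.33 and 6.56, 16.9 and 15.6, and 17.5 and 18.9 TPM, mostly Cd14. Cd14 (means of 3.55, 11.2 and 14.7 TPM) and Cd68 (1.045, 2.78 and 3.315) were higher in both Pkm hairpin groups. Csf1r (0.225, 0.825 and 0.085) and Lyz2 (0.125, 1.465 and 0.045) were higher in ShPkm1 only. The 5 endothelial markers summed to at most 0.410 TPM and the 3 adipocyte markers with a row to at most 1.06.

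Further genes of the pathway came from lists of names, drawn up with earlier results of these data known. The counts of each list stand beside the shares of all tested genes called higher and lower, which were 31.8% and 31.4% in ShPkm1, 33.9% and 34.2% in the ShPkm2-labelled libraries, and 25.7% and 27.3% between the Pkm hairpin groups. Of 17 other MMP genes 14 had a row and 9 were tested. In ShPkm1 5 were higher and 3 lower, with a median log2 fold change of 0.93, against 0.00 over all tested genes. Mmp23 (29 and 41 counts in shScr, 223 and 313 in ShPkm1) rose by 2.73 (adjusted p 7.11e-07) and the membrane-type Mmp16 (30 and 46, 225 and 235) by 2.39 (adjusted p 2.68e-07). Mmp16 rose in the ShPkm2-labelled libraries too, to 183 and 188 counts (1.95, adjusted p 1.18e-06). In the ShPkm2-labelled libraries 2 were higher and 3 lower, with a median of -0.51 against 0.01. This balance turned with scaling, to 3 higher and 2 lower both with library totals only (median -0.18) and with limma on log2(TPM + 1) (median 0.00). The membrane-type Mmp15 fell most there, from 2183 and 2145 counts to 253 and 246 (-3.46, adjusted p 5.61e-11), and also fell in ShPkm1 (-0.88, adjusted p 1.20e-05). Mmp11 (stromelysin 3) was called lower in both (-0.37 and -0.51), but not with library totals only (-0.17 and -0.18, adjusted p 0.178 and 0.144) or with limma on log2(TPM + 1) (0.03 and -0.05, adjusted p 0.844 and 0.684). Mmp28 was higher in both (1.76 and 0.66). Between the Pkm hairpin groups 1 was higher and 6 lower, among them Mmp23 (-3.26), Mmp12 (-2.89) and Mmp15 (-2.58).

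Genes of MMP activation and uptake numbered 16, of which 11 were tested. In ShPkm1 5 were higher and 2 lower (median 0.20), and in the ShPkm2-labelled libraries 7 were higher and 1 lower (median 0.69). With limma on log2(TPM + 1) these were 7 and 0, and 8 and 1. In ShPkm1 the 7 called of 11 were close to the 63.1% called over all genes. Reck, a membrane-anchored MMP inhibitor, rose in both (1.99 and 1.32, adjusted p 8.20e-06 and 0.000286), from 24 and 33 counts to between 81 and 133. Plaur, the urokinase receptor, rose in the ShPkm2-labelled libraries (1.72, adjusted p 3.69e-08) and had -0.24 (adjusted p 0.113) in ShPkm1, and the direct comparison gave 1.96 (adjusted p 2.08e-08). Bsg, an inducer of MMP synthesis, fell in both (-0.54 and -0.85), the first not called with limma on log2(TPM + 1) (-0.15, adjusted p 0.214). Between the Pkm hairpin groups 3 were higher and 5 lower, with Cd44 at 0.49, Plat (tissue plasminogen activator) at -1.06 and Serpine2 at -1.51.

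**Figure D5:**
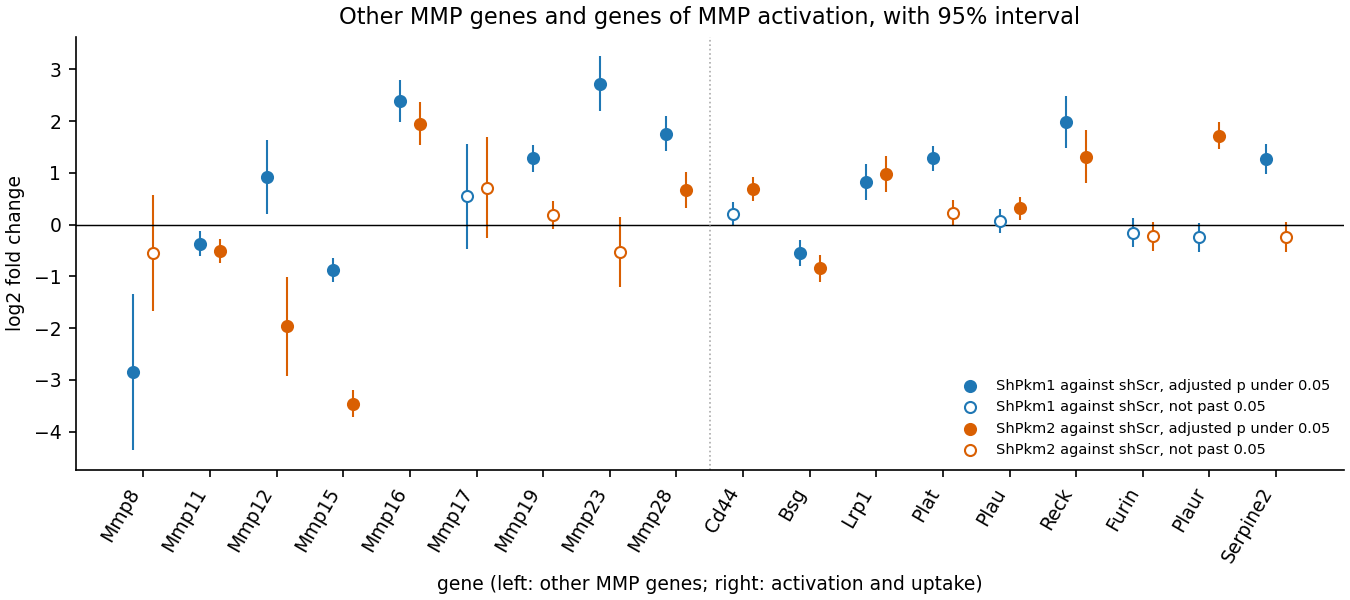
Log2 fold change against shScr (y axis) of the 9 tested other MMP genes and of 9 of the 11 tested genes of MMP activation and uptake (x axis), with 95% intervals, blue for ShPkm1 and orange for the ShPkm2-labelled libraries, filled where the adjusted p was under 0.05. Serpinb2 is not drawn, since it had 0 counts in both ShPkm1 libraries, where its fitted value was -4.83. It rose by 3.49 in the ShPkm2-labelled libraries, more than any point drawn, from 5 and 1 counts in shScr to 43 and 45. Of the points drawn, Mmp23 and Mmp16 are the highest, at 2.73 and 2.39, and Mmp15 the lowest, at -3.46.

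ADAM and ADAMTS genes, some of whose products Timp3 can block, numbered 29, with 22 tested. In ShPkm1 11 were higher and 6 lower (median 0.42), and in the ShPkm2-labelled libraries 5 were higher and 11 lower (median -0.48). Adamts2, a procollagen peptidase, rose by 2.15 in ShPkm1 (adjusted p 5.56e-09) and was 3.30 lower (log2) in the ShPkm2-labelled libraries than in ShPkm1 (adjusted p 1.28e-10). Adam23 rose in ShPkm1 (2.03), while Adam8 (-1.56) and Adamts13 (-0.96, not called with limma on log2(TPM + 1)) fell there. Adamts4 and Adamts16 fell most in the ShPkm2-labelled libraries (-2.35 and -2.30). For Adamts4 the controls differed widely, with 1803 and 4618 counts against 829 and 721. Adam9 and Adam10 rose in both groups, by 0.98 and 0.76 in ShPkm1 and by 1.09 and 1.07 in the ShPkm2-labelled libraries. Between the Pkm hairpin groups 3 were higher, among them Adam8 (1.24) and Adam17 (0.46), and 14 lower, among them Adamts12 (-2.99). The balance depended on scaling against shScr. With library totals only, 13 were higher and 4 lower in ShPkm1 and 7 higher and 9 lower in the ShPkm2-labelled libraries, and with limma on log2(TPM + 1) the counts were 14 and 2, and 7 and 8.

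A list of transcription factors, some of which are known to bind the AP-1 motif printed above, held 20 genes, with 19 tested. Besides AP-1 (Fos, Jun, Atf and Maf) and Ets factors it held Runx1, Runx2 and Cebpb. In ShPkm1 9 were higher and 5 lower (median 0.11), and in the ShPkm2-labelled libraries 8 were higher and 5 lower (median 0.10). With limma on log2(TPM + 1) the counts were 10 and 2 (median 0.42) and 12 and 5 (median 0.54). Fos fell in both groups (-0.85 and -0.96, adjusted p 0.00378 and 0.00139), and so did Atf3 (-1.10 and -1.58). Runx2 (1.26 and 1.27) and the Ets factor Elk3 (1.04 and 1.61) rose in both. Fosl1 rose by 2.30 in the ShPkm2-labelled libraries (adjusted p 5.37e-10), from 334 and 343 to 2141 and 2065 counts, and Junb fell there by 1.05 (adjusted p 5.18e-06). Etv4, an Ets factor, rose there by 2.61 (adjusted p 2.49e-09). Between the Pkm hairpin groups 9 were higher, led by Etv4 (2.05) and Fosl1 (1.73), and 3 lower, among them Junb (-1.64) and Runx1 (-0.79). The list thus held members that rose and members that fell in each comparison.

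The genes with the most similar profile over the 6 libraries were found by the root mean square difference of centred log2 CPM, among tested genes averaging 50 counts or more. Elmo1 was nearest to Mmp2 (0.104 log2 units), with 21 genes in all within 0.5. Sh3gl3 was nearest to Timp3 (0.120), with 66 genes within 0.5. Dync1i1 was nearest to Mmp13 (0.393), Rnf213 to Mmp3 (0.499) and Tmem176a to Mmp9 (0.530). For Mmp14, Timp1, Timp2 and Mmp10 the nearest were Man2b1 (0.0300), Slc25a17 (0.0491), Slc6a8 (0.0620) and Zc3h10 (0.0664), each with between 4579 and 7659 genes within 0.5.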

How the data were processed

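Expression was measured in 6 libraries, 3 groups of 2, grouped by sample title. The authors deposited 1 row per RefSeq transcript (57920) with estimated counts and TPM, per the file headers. Between 48.0% and 50.7% of a library's deposited estimated counts per transcript are whole to within 1e-08, zeros included (16.5% to 17.7% of those above 0), and its deposited TPM values sum to between 999999 and 1000000. The submitters' processing notes name HISAT, StringTie, Bowtie, RSEM, DESeq2 and the build mm10, without roles. Another 6 columns of FPKM and 9 of group means were not used.

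Counts and TPM were summed per NCBI gene (17558, of which 17445 matched a symbol in RefSeq GRCm38.p6), and counts were rounded. Tests used edgeR 4.0.16 in R 4.3.3 with filterByExpr (minimum count 10, minimum total 15), TMM scaling, 1 coefficient per group over all 6 libraries, quasi-likelihood F-test, two-sided, Benjamini-Hochberg adjustment over 12643 genes, threshold 0.05. CPM uses the TMM-scaled library sizes. The test was also run on simulated counts, with the same spread in every group and few changed genes. That setting differs from these data, so it is no check on the calls here. Motif sequences are from RefSeq.

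Alternatives were other scalings and filters, DESeq2 1.42.0, limma 3.58.1 on log2(TPM + 1) and log2(TPM + 0.1), fits of the groups compared, a replicate block and leaving out each library. Members, lists and tests were chosen with earlier results of these data known. Beside the members, the Pkm isoforms, Myog, Mki67, the synapsin genes, cell type markers and tested MMP genes, each list gave per comparison up to 2 called genes with the largest rise and up to 2 with the largest fall, averaging 50 counts or more with groups that do not overlap, and each member its nearest gene. Serpinb2 is named outside this rule, after its values were seen, and 1 gene of the activation and uptake list is not reported here.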

Additional observations from a re-analysis of the deposited data

How the results depend on the processing

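Of 396 values of single members under alternatives, 352 kept their direction and their side of the threshold, 27 lost a call, 12 gained one and 5 changed sign. The sign changes were those of Mmp10 in ShPkm1 against shScr, at 0.08 with library totals only, 0.12 with limma on log2(TPM + 1), 0.26 on log2(TPM + 0.1) and 0.12 without shScr replicate 2, and that of Mmp14 in the ShPkm2-labelled libraries against shScr, at -0.15 without shScr replicate 1. None of these 5 was called. Over the leave-one-out fits the Mmp10 value ran from -0.29 to 0.12 and the Mmp14 value from -0.15 to 0.42. The cause was not tested. The number of members called between the Pkm hairpin groups went from 5 to 8 in a fit of only those 4 libraries. Leaving out each library in turn gave 6 to 8 members called in ShPkm1 against shScr, 5 to 7 in the ShPkm2-labelled libraries against shScr and 4 to 7 between the Pkm hairpin groups. Over all genes it gave 6047 to 8285, 7231 to 8793 and 4939 to 7987 calls. In those fits the group left with 1 library is assumed to vary like the others. The shScr replicates differed more, by a median of 0.179 log2 units over tested genes, against 0.118 in ShPkm1 and 0.109 in the ShPkm2-labelled libraries. A call made without a shScr library thus rests on the smaller spread of the other groups, and is no check on the controls. With the replicate block 7922 genes were called in ShPkm1 against shScr, against 7984, and the block changed 1 member call, that of Mmp3 between the Pkm hairpin groups (1.05, adjusted p 0.0247). Deviations of same-numbered libraries correlated at -0.0256, 0.0418 and 0.0527 between groups, so the numbers were not taken as pairs. On log2(TPM + 1) 78.1% of the calls in ShPkm1 and 75.7% in the ShPkm2-labelled libraries against shScr were higher, with medians of all genes of 0.31 and 0.36. Between the Pkm hairpin groups the share higher was 48.4%, and 61.3% with library totals only. That scale understates changes of low genes: Mmp13 in ShPkm1 was -1.86 on log2(TPM + 1). With a mean of at least 50 counts required, Mmp3, Mmp10 and Mmp13 were not tested. Few counts limit Mmp3, Mmp10, Mmp13 and Timp4, and also Mmp8 and Mmp12.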
